A study of Mus musculus with 16 samples.

Results

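ITAM costimulation is the second signal that osteoclast precursors need beside RANKL, and 9 genes of that pathway were followed here in RAW264.7 cells, a mouse macrophage line that forms osteoclast-like cells when given RANKL. The 9 genes were chosen by name as rows of the deposited expression table: the receptors Oscar, Trem2 and Pirb, the adaptors Tyrobp and Fcer1g, the kinases Syk, Btk and Tec, and the phospholipase Plcg2. All 9 were found among the 20490 genes of the table, and all 9 were among the 10365 genes that reached 1 RPKM (reads scaled to transcript length and library depth) in at least 2 libraries and so were tested. After 12 h of attachment the cells received both agents together, RANKL alone, vesicles alone or PBS. RANKL, the cytokine that drives osteoclast formation, was used at 10 ng/mL. The extracellular vesicles (EVs) were used at 30 µg/mL and came from the human line PC3M, a metastatic derivative of a prostate cancer line. RNA was taken at 48 or 72 h, which gave 8 groups of 2 libraries each: EV+RANKL, RANKL, EV and PBS at either time. No genotype differed between the groups, and all cells came from the 1 line. Whether 2 libraries of a group stem from different dishes is not said in the labels, and the p-values therefore cover only the spread seen between them, which may be technical.

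An ITAM is a short tyrosine motif in the tail of an adaptor protein. Receptors with no signalling tail of their own associate with such an adaptor: Trem2 pairs with DAP12, the product of Tyrobp, and OSCAR pairs with the Fc receptor gamma chain, the product of Fcer1g. Once a SRC family kinase has phosphorylated the motif, SYK docks on it, and the kinases BTK and TEC together with phospholipase C gamma 2 raise cytosolic calcium, which activates the calcineurin target NFATc1, the master transcription factor of osteoclasts. PIR-B, the product of Pirb, carries ITIM motifs, recruits phosphatases and restrains the same pathway.

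The promoters of Oscar and Trem2 are shown because these receptor genes gave the clearest responses to RANKL, and in opposite directions. Each is the RefSeq sequence of build GRCm38.p6, 250 bases before to 50 bases after the gene start, with capitals marking matches on either strand to GGAAA (core of NFAT sites), GAGGAA (core of PU.1 sites), TGANTCA (AP-1) or CATGTG (an E-box that MITF can bind). Positions below count from the start, with the last upstream base at -1.
Oscar, chr7:3616108-3616407, minus strand: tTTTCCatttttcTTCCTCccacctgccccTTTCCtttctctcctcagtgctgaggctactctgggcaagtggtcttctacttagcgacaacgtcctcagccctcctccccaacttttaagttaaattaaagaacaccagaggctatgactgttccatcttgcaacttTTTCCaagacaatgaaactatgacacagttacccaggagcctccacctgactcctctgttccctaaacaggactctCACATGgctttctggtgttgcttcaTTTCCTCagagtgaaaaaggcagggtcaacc
Trem2, chr17:48346151-48346450, plus strand: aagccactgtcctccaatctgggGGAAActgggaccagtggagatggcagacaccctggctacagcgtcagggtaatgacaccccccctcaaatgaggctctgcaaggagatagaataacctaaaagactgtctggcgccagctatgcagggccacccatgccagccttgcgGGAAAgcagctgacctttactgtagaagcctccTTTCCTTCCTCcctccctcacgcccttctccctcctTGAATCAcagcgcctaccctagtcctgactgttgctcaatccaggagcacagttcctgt
The Oscar window held 4 matches to GGAAA, 2 to GAGGAA, of which the 1 at position 21 overlaps the GGAAA match at position 20, and 1 to CATGTG, at -6 to -1. The Trem2 window held 3 matches to GGAAA, 1 to GAGGAA directly beside the GGAAA match at -45, and 1 to TGANTCA, at -9 to -3. Most of these motifs are common: GGAAA was in 61.3% of 32851 RefSeq promoters of this length, GAGGAA in 28.3%, CATGTG in 14.2% and TGANTCA in 7.81%. RefSeq promoters were matched for 8 of the 9 genes, and no entry was matched for Tyrobp. A match is a description of letters and not a site of binding.

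Estimated depth was similar across the libraries, 18.3 to 20.0 M reads (median 19.2 M reads). Summed macrophage and osteoclast markers differed between the groups. The macrophage sum is weighted to Lyz2 (719 to 6084 RPKM over the libraries) and Cd68 (782 to 1318 RPKM), while Adgre1 was at 12.2 to 40.5 RPKM. Mrc1 of that list reached at most 0.530 RPKM, and Calcr of the osteoclast list at most 0.133 RPKM. The sums therefore do not show that all markers of a list moved together. At 48 h the 7 macrophage markers summed to 2953 to 2996 RPKM in RANKL libraries against 7159 to 7707 RPKM in PBS libraries, and the 7 osteoclast markers to 178.4 to 202.7 RPKM in RANKL libraries against 6.234 to 6.481 RPKM in PBS libraries. The macrophage markers summed to 2388 to 3075 RPKM in RANKL libraries at 72 h, against 5597 to 6431 RPKM in PBS libraries, and the osteoclast markers to 361.1 to 716.7 RPKM in RANKL libraries against 6.848 to 8.492 RPKM in PBS libraries. Markers of other cells that use these genes were near 0: the 5 B cell markers reached at most 0.145 RPKM (Cd79b), and the 1 of 6 T and NK cell markers in the table, Cd4, at most 0.0386 RPKM. The epithelial list reached at most 0.0499 RPKM (Epcam) and the stromal list 0.867 RPKM (Runx2), and 0 of 5 mast cell markers were matched to a row of the table. EV+RANKL libraries had 2161 to 2563 RPKM of summed macrophage markers at 48 h and 1940 to 2412 RPKM at 72 h, with 348.2 to 483 RPKM and 960.4 to 1455 RPKM of summed osteoclast markers at the same times, above the RANKL libraries at both. EV libraries of 72 h had 5772 to 5973 RPKM of summed macrophage and 65.82 to 106 RPKM of summed osteoclast markers. The 3 of 4 platelet markers in the table summed to 1.203 to 1.887 RPKM in RANKL libraries against 5.457 to 5.999 RPKM in PBS libraries at 72 h, with Pf4 the highest of them, and the 3 of 5 neutrophil markers to 0.2172 to 0.3549 RPKM in RANKL libraries against 0.4707 to 0.7982 RPKM in PBS libraries. The part of these marker differences in the results below was not tested. In 5 libraries of 72 h (both EV+RANKL, both EV and RANKL library 2) the share of summed RPKM in ribosomal protein genes was 10.7 to 11.2%, and in the other 11 libraries it was 7.91 to 9.45%.

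Transcript levels of the pathway spanned several orders of magnitude (the plot of RPKM by library). Tyrobp was the most abundant member per length, with a median of 335 RPKM over the 16 libraries and a range of 220 to 591 RPKM. Fcer1g, the other adaptor gene, had a median of 93.4 RPKM (57.5 to 167 RPKM), and Tyrobp exceeded it 3.33- to 5.13-fold within each library. Btk had a median of 39.8 RPKM, Plcg2 of 38.7 RPKM and Trem2 of 27.5 RPKM. Syk, Tec and Pirb were lower, with medians of 8.24, 5.88 and 2.92 RPKM. Oscar had the lowest median, 0.551 RPKM, and the widest range, 0 to 17.9 RPKM. On the log2(RPKM + 1) scale the group means of Oscar spanned 3.93 units, those of Plcg2 and Btk 0.44 and 0.43, and those of the other 6 genes 1.04 to 1.30. In bulk RNA a change in the fraction of cells that express a gene and a change in RNA per cell cannot be told apart.

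**Figure D1:**
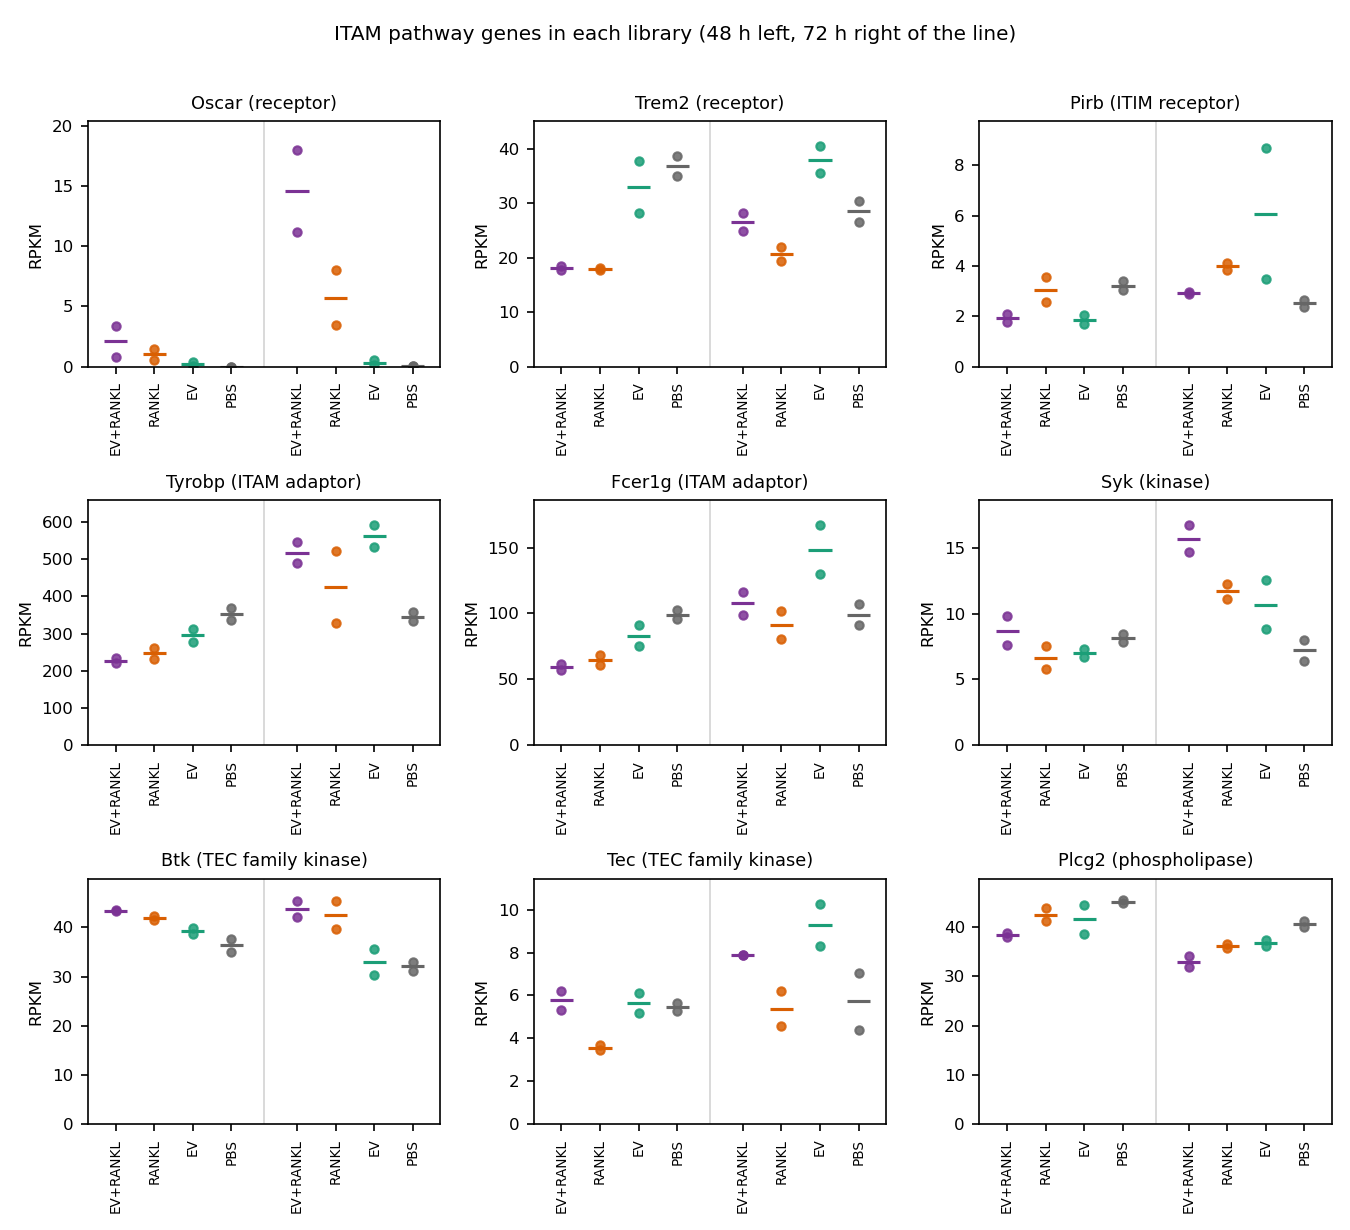
RPKM of the 9 ITAM pathway genes in each library by treatment group, with 48 h groups left and 72 h groups right of the vertical line. Points are single libraries and bars are the mean of the 2; Oscar is highest in EV+RANKL libraries of 72 h (17.9 and 11.2 RPKM), and Trem2 is lower in RANKL than in PBS libraries at both times.

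Oscar, the receptor for exposed collagen motifs, was low without RANKL and rose with it at 72 h. At 48 h it measured 3.38 and 0.801 RPKM in EV+RANKL libraries, 1.48 and 0.568 RPKM in RANKL libraries, 0.369 and 0.0867 RPKM in EV libraries, and was listed at 0 in both PBS libraries. At 72 h it measured 17.9 and 11.2 RPKM in EV+RANKL libraries, 3.48 and 7.996 RPKM in RANKL libraries, 0.533 and 0.143 RPKM in EV libraries, and 0.0295 and 0.0273 RPKM in PBS libraries. At either time both libraries with RANKL lay above both without it, whether or not vesicles were present. Between RANKL and PBS libraries, 68.3% of all tested genes had no overlap at 48 h and 54% at 72 h, in either direction. With the exon length of 1847 bases and the estimated depths, Oscar had about 650 and 395 reads in EV+RANKL libraries of 72 h. It had about 1 read in each PBS library of 72 h, so the PBS values lie near the floor of detection.

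At 72 h Oscar was 2.63 ± 0.40 log2 units higher in RANKL than in PBS cells (limma estimate ± SE on log2(RPKM + 1), adjusted p = 0.000977). The call held in all 13 alternative settings, with adjusted p between 0.00029 and 0.0182. At 48 h the difference was 0.98 ± 0.40 and did not pass (adjusted p = 0.122), although it passed with an added constant of 0.1 and with only the compared groups fitted. With vesicles added to RANKL, Oscar differed from PBS cells by 1.49 ± 0.40 at 48 h (adjusted p = 0.017) and by 3.89 ± 0.40 at 72 h (adjusted p = 1.75e-05). The 48 h call was lost without EV+RANKL library 1, PBS library 1 or PBS library 2, while the 72 h call held in every alternative setting. Set directly against RANKL alone, the EV+RANKL cells were 1.26 ± 0.40 higher at 72 h, with a 95% interval of 0.40 to 2.12 and an adjusted p of 0.113. That comparison turned on 1 library: both EV+RANKL values exceeded both RANKL values, but the RANKL libraries lay far apart, and without RANKL library 2 the adjusted p was 0.0203, within a range of 0.0203 to 0.619 over the alternative settings. Without RANKL library 2, the RANKL library of 72 h that was left had a ribosomal protein share of 9.22%, against 11.2 and 10.9% in EV+RANKL libraries. Added vesicles and that share then cannot be told apart. Vesicles alone gave 0.36 ± 0.40 at 72 h (adjusted p = 0.527), with estimates of 0.152 to 1.61 over the alternative settings. Both EV libraries lay above both PBS libraries, and 57.1% of all tested genes had no overlap there, in either direction. At such low levels this does not show Oscar unchanged. Ordered by group mean, Oscar ran from PBS at 48 and 72 h through EV at 48 and 72 h, RANKL and EV+RANKL at 48 h, and RANKL at 72 h, to EV+RANKL at 72 h; the 2 EV groups overlapped each other, as did the 2 groups of 48 h with RANKL.

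Trem2, a lipid-binding receptor that signals through DAP12, moved the other way. At 48 h it measured 17.8 and 18.4 RPKM in EV+RANKL libraries, 18.2 and 17.7 RPKM in RANKL libraries, 28.3 and 37.8 RPKM in EV libraries, and 35.1 and 38.8 RPKM in PBS libraries. All 4 libraries with RANKL were thus below all 4 without it. The share of all tested genes separated in this way was not counted. Between RANKL and PBS libraries alone, 68.3% of all tested genes had no overlap, in either direction. Trem2 fell by 0.997 ± 0.13 log2 units in RANKL against PBS cells (adjusted p = 3e-04), a call kept in all 12 alternative settings with adjusted p between 0.000226 and 0.00639. Vesicles on top of RANKL left a difference of 0.01 at 48 h, with a 95% interval of -0.28 to 0.30.

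At 72 h Trem2 measured 28.3 and 24.9 RPKM in EV+RANKL libraries, 22.1 and 19.4 RPKM in RANKL libraries, 40.6 and 35.6 RPKM in EV libraries, and 30.5 and 26.7 RPKM in PBS libraries. RANKL libraries remained below PBS libraries, and EV+RANKL libraries overlapped PBS libraries. The RANKL difference was -0.44 ± 0.13 (adjusted p = 0.0341), and it lost its call in 7 of the alternative settings, among them those without RANKL library 2, PBS library 1 or PBS library 2. EV+RANKL cells were 0.50 ± 0.13 log2 units lower than EV cells (adjusted p = 0.016), a call lost without EV library 1 or EV+RANKL library 2. Vesicles alone gave 0.40 ± 0.13 (adjusted p = 0.0512), which passed in 4 of 12 alternative settings, 1 of them without EV library 2, with adjusted p from 0.0358 to 0.307 over the settings, and vesicles with RANKL 0.34 ± 0.13 over RANKL alone (adjusted p = 0.167).

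Pirb, the inhibitory receptor, was higher in EV than in PBS cells at 72 h, in a difference that rests on few libraries. It measured 2.95 and 2.90 RPKM in EV+RANKL libraries, 4.13 and 3.83 RPKM in RANKL libraries, 8.67 and 3.46 RPKM in EV libraries, and 2.38 and 2.65 RPKM in PBS libraries. EV library 1 stood far above EV library 2, which was below both RANKL libraries. The difference between EV and PBS cells was 0.90 ± 0.25 log2 units (adjusted p = 0.0288), and it lost its call without EV library 1, PBS library 1 or PBS library 2. Pirb shares near-identical sequence with the activating Pira genes, and the sources used here do not give how shared reads were assigned, so its level is uncertain. Pira2, an activating counterpart measured in the same table, was 0.85 ± 0.26 log2 units higher in EV than in PBS cells at 72 h (adjusted p = 0.0387). It was low, at 1.18 and 3.04 RPKM in EV libraries against 0.602 and 0.682 RPKM in PBS libraries. The doubt about shared reads applies to Pira2 too, so it is not separate support for Pirb. At 48 h Pirb measured 1.68 and 2.05 RPKM in EV libraries against 3.06 and 3.38 RPKM in PBS libraries, a difference of -0.56 ± 0.25 that did not pass (adjusted p = 0.42). Oscar and Pirb lie on chromosome 7 with 9 protein-coding genes between them, per the RefSeq annotation.

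Both adaptor genes fell in EV+RANKL against PBS cells at 48 h, and Fcer1g also in RANKL against PBS cells. Tyrobp at 48 h measured 234 and 220 RPKM in EV+RANKL libraries, 262 and 232 RPKM in RANKL libraries, 279 and 312 RPKM in EV libraries, and 336 and 367 RPKM in PBS libraries. Fcer1g at 48 h measured 57.5 and 61.6 RPKM in EV+RANKL libraries, 68.3 and 61.2 RPKM in RANKL libraries, 75.5 and 91.0 RPKM in EV libraries, and 95.8 and 102 RPKM in PBS libraries. For both adaptors each treated library at 48 h lay below both PBS libraries. Such a lack of overlap, in either direction, was common at 48 h: 68.3% of all tested genes had it between RANKL and PBS libraries, and 52.6% between EV and PBS libraries. Fcer1g fell by 0.61 ± 0.15 log2 units in RANKL against PBS cells (adjusted p = 0.0169), while the Tyrobp difference of -0.51 ± 0.17 did not pass (adjusted p = 0.0612). The Fcer1g call was lost without PBS library 1, PBS library 2 or RANKL library 2, and with no filter on low values. In EV+RANKL against PBS cells both fell, Fcer1g by 0.73 ± 0.15 (adjusted p = 0.00416) and Tyrobp by 0.63 ± 0.17 (adjusted p = 0.0178), and the Tyrobp call was lost when any 1 of the 4 libraries was left out.

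At 72 h both adaptor genes rose in EV against PBS cells. Tyrobp measured 546 and 489 RPKM in EV+RANKL libraries, 329 and 522 RPKM in RANKL libraries, 591 and 531 RPKM in EV libraries, and 357 and 333 RPKM in PBS libraries. Fcer1g measured 116 and 99.2 RPKM in EV+RANKL libraries, 80.9 and 102 RPKM in RANKL libraries, 167 and 130 RPKM in EV libraries, and 107 and 91.0 RPKM in PBS libraries. EV libraries were above PBS libraries for both genes without overlap, and 57.1% of all tested genes had no overlap there, in either direction. RANKL libraries overlapped PBS libraries for both genes. Tyrobp rose by 0.70 ± 0.17 log2 units in EV against PBS cells (adjusted p = 0.0182), and Fcer1g by 0.57 ± 0.15 (adjusted p = 0.0253), and both calls were lost without EV library 1 or PBS library 2. Tyrobp was also 0.58 ± 0.17 higher in EV+RANKL than in PBS cells (adjusted p = 0.0149), a call lost without EV+RANKL library 1 or PBS library 2. The EV and PBS libraries of 72 h lie wholly on the 2 sides of the ribosomal protein division, with shares of 10.7 to 11.2% for the 5 libraries that include EV and 7.91 to 9.45% for the 11 that include PBS, so treatment and that division cannot be told apart for these adaptor genes or for Pirb and Tec. The same holds for EV+RANKL against PBS libraries at 72 h. Short transcripts moved up in the same comparison: 150 genes within 25% of the 667-base exon length of Tyrobp had a median change of 0.18 and an upper quartile of 0.39, and 263 genes within 25% of the 874 bases of Fcer1g had a median of 0.13 and an upper quartile of 0.36. The part of either in the adaptor changes was not tested.

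Syk, the kinase that docks on phosphorylated ITAMs, rose with RANKL at 72 h. It measured 16.7 and 14.6 RPKM in EV+RANKL libraries, 11.1 and 12.2 RPKM in RANKL libraries, 12.5 and 8.80 RPKM in EV libraries, and 8.03 and 6.37 RPKM in PBS libraries. Both EV+RANKL libraries exceeded every other library of that time. Syk was 1.03 ± 0.17 log2 units higher in EV+RANKL than in PBS cells (adjusted p = 0.000451), a call kept in every alternative setting, and 0.63 ± 0.17 higher in RANKL than in PBS cells (adjusted p = 0.0193), a call lost in 5, among them those without RANKL library 2 or PBS library 2. Against RANKL alone EV+RANKL differed by 0.39 ± 0.17 (adjusted p = 0.203). EV libraries lay above PBS libraries without overlap, by 0.50 ± 0.17 (adjusted p = 0.0553), which passed in 4 of 12 alternative settings, among them those without EV library 2 or PBS library 1, with adjusted p from 0.0118 to 0.36 over the settings. Of all tested genes, 57.1% likewise had no overlap between EV and PBS libraries at 72 h, in either direction. At 48 h Syk measured 9.84 and 7.58 RPKM in EV+RANKL libraries, 7.50 and 5.78 RPKM in RANKL libraries, 7.29 and 6.68 RPKM in EV libraries, and 8.45 and 7.86 RPKM in PBS libraries. The 48 h groups lay close together, and the RANKL difference of -0.27 did not pass (adjusted p = 0.308).

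Btk and Tec are both TEC family kinases that act on phospholipase C gamma, and Btk rose with RANKL at 72 h. It measured then 42.1 and 45.5 RPKM in EV+RANKL libraries, 39.6 and 45.3 RPKM in RANKL libraries, 30.3 and 35.6 RPKM in EV libraries, and 31.2 and 33.0 RPKM in PBS libraries. The 4 libraries with RANKL lay above the 4 without it. The share of all tested genes separated in this way was not counted. Between RANKL and PBS libraries alone, 54% of all tested genes had no overlap, in either direction. Btk rose by 0.39 ± 0.10 log2 units in RANKL against PBS cells (adjusted p = 0.0153), by 0.43 ± 0.10 in EV+RANKL against PBS cells (adjusted p = 0.00361) and by 0.40 ± 0.10 in EV+RANKL against EV cells (adjusted p = 0.0101). The RANKL call was lost without RANKL library 2 or PBS library 1, and the call against EV cells without EV+RANKL library 2 or EV library 1. Vesicles alone gave 0.03 for Btk, with a 95% interval of -0.18 to 0.24.

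Tec was higher in EV than in PBS cells at 72 h. It measured 7.87 and 7.88 RPKM in EV+RANKL libraries, 4.55 and 6.23 RPKM in RANKL libraries, 10.3 and 8.32 RPKM in EV libraries, and 7.05 and 4.40 RPKM in PBS libraries. EV libraries were above PBS libraries without overlap, and EV+RANKL libraries above RANKL libraries. Over all tested genes 57.1% and 48.4% had no overlap in these 2 comparisons, in either direction. The EV difference from PBS was 0.64 ± 0.17 log2 units (adjusted p = 0.027), a call lost without EV library 1 or PBS library 2, and the EV+RANKL difference from RANKL was 0.49 ± 0.17 (adjusted p = 0.144). At 48 h Tec measured 5.33 and 6.22 RPKM in EV+RANKL libraries, 3.45 and 3.67 RPKM in RANKL libraries, 5.16 and 6.12 RPKM in EV libraries, and 5.30 and 5.65 RPKM in PBS libraries. RANKL libraries were the lowest group, with differences of -0.51 ± 0.17 from PBS (adjusted p = 0.0689) and of 0.57 ± 0.17 for EV+RANKL over RANKL (adjusted p = 0.212), neither past the threshold.

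Plcg2, which cleaves membrane phosphoinositide to release the calcium signal, was the steadiest member with Btk, at 31.8 to 45.4 RPKM over all libraries. At 72 h it measured 31.8 and 34.0 RPKM in EV+RANKL libraries against 41.2 and 40.1 RPKM in PBS libraries, and it fell by 0.30 ± 0.09 log2 units (adjusted p = 0.0146), a call lost without EV+RANKL library 1, PBS library 1 or PBS library 2. In RANKL against PBS cells the 95% interval of its difference at 72 h was -0.35 to 0.02, and in EV against PBS cells -0.33 to 0.04.

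Counted over the pathway, RANKL against PBS called 2 of the 9 genes at 48 h, both lower (Trem2 and Fcer1g), where 14.8% of all tested genes were called, 8.29% lower and 6.47% higher. At 72 h it called 4 of 9, with Oscar, Syk and Btk higher and Trem2 lower, against 18.9% of all tested genes, 9.73% higher and 9.13% lower. The 48 h count was 1 without RANKL library 2, PBS library 1 or PBS library 2. Without RANKL library 2 the 72 h count was 1, and without PBS library 1 or PBS library 2 it was 2, when 738, 1194 and 1115 of all tested genes were called, against 1954 with all libraries. Vesicles alone called 0 of 9 by limma at 48 h, with 1 gene, Pirb, at an unadjusted p under 0.05, where 1.29% of all tested genes were called, 0.608% higher and 0.685% lower. At 72 h they called 4 of 9, all higher (Tyrobp, Fcer1g, Pirb and Tec), where 18.3% of all tested genes were called, 10.4% higher and 7.83% lower. That count fell to 0 without EV library 1 or without PBS library 2, when 55 and 36 of all tested genes were called, and was 6 without EV library 2, when 2918 were called, against 1895 with all libraries.

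Vesicles added to RANKL called 0 of 9 by limma at 48 h (background 0.434%, 0.27% higher and 0.164% lower, with 1 gene, Tec, at an unadjusted p under 0.05) and 0 of 9 at 72 h (background 1.83%, 1.3% higher and 0.531% lower, with 4 genes at an unadjusted p under 0.05: Oscar, Trem2, Syk and Tec). Without RANKL library 2, 3 genes passed at 72 h, Oscar, Tyrobp and Tec, and the calls over all tested genes were then 1815, against 190 with all libraries. In that setting the RANKL library left had a ribosomal protein share of 9.22%, against 11.2 and 10.9% in the EV+RANKL libraries of 72 h. Added vesicles and the ribosomal protein division therefore cannot be told apart there. EV+RANKL against PBS called 4 of 9 at 48 h (background 22.1%, 11.2% higher and 10.9% lower), with Oscar higher and Trem2, Fcer1g and Tyrobp lower. At 72 h it called 5 of 9 (background 41.9%, 19.9% higher and 22.1% lower), with Oscar, Syk, Btk and Tyrobp higher and Plcg2 lower. EV+RANKL against EV called Trem2 alone, lower, at 48 h (background 9.53%, 3.96% higher and 5.58% lower) and 4 of 9 at 72 h (background 22%, 9.05% higher and 12.9% lower), with Oscar, Btk and Syk higher and Trem2 lower; the Syk call was lost without EV library 2 or either EV+RANKL library. These comparisons share control libraries. With 2 libraries a group, a lack of overlap between groups was common. In RANKL against PBS 68.3% of all tested genes had no overlap at 48 h and 54% at 72 h. The shares were 52.6% and 57.1% in EV against PBS, and 43.8% and 48.4% in EV+RANKL against RANKL. The median change of the 9 genes in EV against PBS cells was 0.50 at 72 h, beside 0.03 over all tested genes, and -0.17 at 48 h, beside 0.03.

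**Figure D2:**
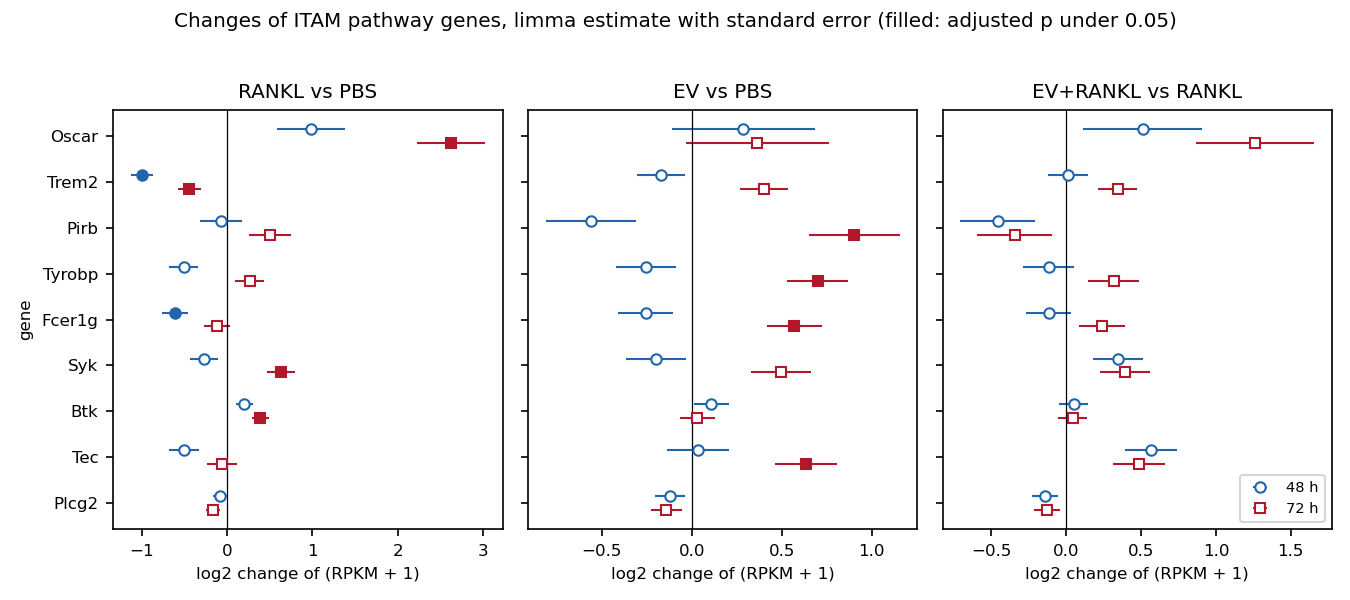
Change of each ITAM pathway gene on the log2(RPKM + 1) scale in 3 comparisons, as limma estimate with standard error; circles are 48 h, squares 72 h, and filled symbols have an adjusted p under 0.05. Oscar at 72 h is the largest RANKL change (2.63), and 4 genes are filled in EV against PBS at 72 h.

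Between the times, Tyrobp and Syk were called higher in EV, RANKL and EV+RANKL cells. At 72 against 48 h limma called 0 of 9 genes in PBS cells (background 0.646%, with 1 gene at an unadjusted p under 0.05). It called 5 of 9 in EV cells (background 32.3%, 17.4% higher and 14.9% lower), all higher: Pirb by 1.20 log2 units, Tyrobp by 0.93, Fcer1g by 0.82, Tec by 0.63 and Syk by 0.53. RANKL cells had 3 of 9 called, all higher (background 6.03%, 3.45% higher and 2.58% lower), with Oscar at 1.69 (adjusted p = 0.0342), Tyrobp at 0.75 (adjusted p = 0.032) and Syk at 0.74 (adjusted p = 0.032). In EV+RANKL cells 5 of 9 were called, all higher (background 38.9%, 17.4% higher and 21.5% lower): Oscar by 2.44, Tyrobp by 1.18, Fcer1g by 0.84, Syk by 0.79 and Trem2 by 0.53. All 3 RANKL calls were lost without RANKL library 2 at 72 h or library 2 at 48 h, and those of Oscar and Tyrobp also without library 1 at 48 h. In EV cells the Syk call was lost without EV library 1 at 72 h or either library of 48 h, and the Tec call without library 1 of either time. In EV+RANKL cells the Trem2 call was lost without library 1 at 72 h or library 2 at 48 h, and the Syk call without library 2 at 48 h. The labels give no sequencing date, and the 5 libraries with the higher ribosomal protein share are all of 72 h. In EV and in EV+RANKL cells time and that division therefore cannot be told apart. The 150 genes near the length of Tyrobp had median changes of 0.24 in EV and 0.20 in EV+RANKL cells at 72 against 48 h. Genes near the length of Fcer1g had 0.18 and 0.11, and those near the length of Syk -0.02 and -0.04. The part of either in these calls was not tested.

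With all libraries, 0 of the 9 genes passed the tests of whether an effect itself differed, and the count for the EV effect turned on 1 library. For the RANKL effect at 72 against 48 h limma called 0 of 9, with 5 at an unadjusted p under 0.05, where 0.0289% of all tested genes were called; Syk had a difference of 0.90 (adjusted p = 0.21). For the EV effect at 72 against 48 h limma called 0 of 9, with 6 at an unadjusted p under 0.05, where 0.0193% were called; Pirb had a difference of 1.47 (adjusted p = 0.138), Tyrobp of 0.95 (adjusted p = 0.141) and Fcer1g of 0.83 (adjusted p = 0.146). For the interaction of vesicles with RANKL, limma called 0 of 9 at 48 h and 0 of 9 at 72 h, with 2 and 1 genes at an unadjusted p under 0.05, and a background of 0.00965% at either time. Without EV library 2 at 72 h, the EV effect at 72 against 48 h passed for 5 of 9 genes (Pirb, Fcer1g, Syk, Tyrobp and Trem2) and for 1493 of all tested genes, against 2 with all libraries, and the 72 h interaction passed for Pirb and for 14 of all tested genes. Without RANKL library 1 at 72 h, the RANKL effect passed for Tyrobp and for 318 of all tested genes, against 3 with all libraries. The opposite signs of several genes at 48 and 72 h under vesicles are therefore given as values.

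Across the 8 group means, Tyrobp and Fcer1g had a Pearson r of 0.93 with each other, Oscar and Syk of 0.83, and Syk and Plcg2 of -0.89. These are descriptions over 8 points that share libraries and normalization. The gene most like Oscar among all tested genes was Siglec15 (r = 0.9956), a sialic acid receptor of osteoclasts that signals through DAP12, followed by Trim8 (r = 0.9918) and Adrbk2 (r = 0.99). At 72 h Siglec15 averaged 8.10 RPKM in EV+RANKL, 3.55 RPKM in RANKL, 0.430 RPKM in EV and 0.136 RPKM in PBS cells. Siglec15 was chosen for this likeness, so its levels are a description. It is also in the list of other ITAM-coupled receptors described below. The nearest gene to Fcer1g was Lgals3 (r = 0.9953), to Tyrobp Napa (r = 0.9914), to Syk Dopey2 (r = 0.986) and to Trem2 Tcf4 (r = 0.9808).

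**Figure D3:**
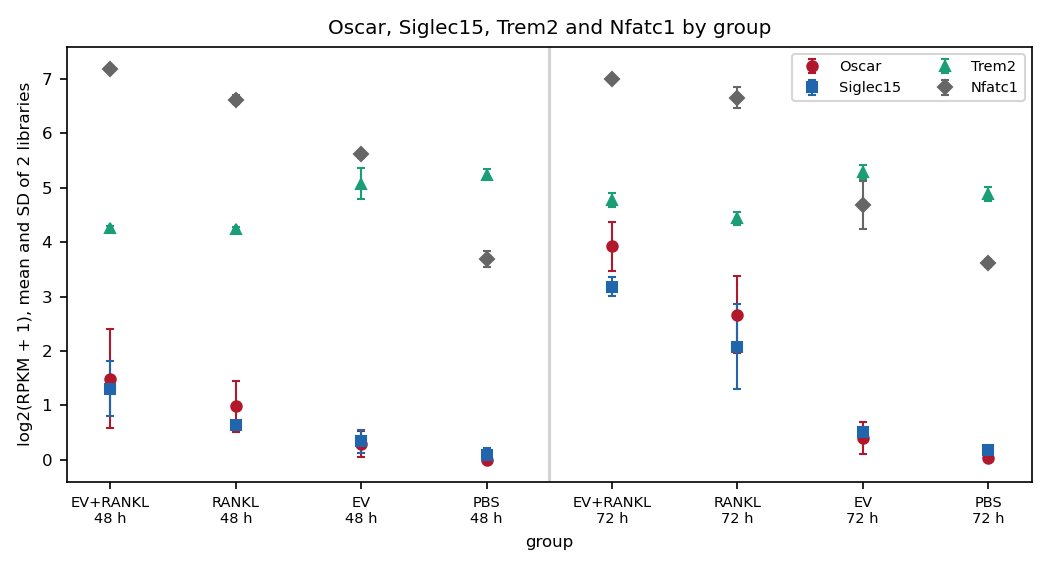
Mean and SD of 2 libraries of log2(RPKM + 1) for Oscar, Siglec15, Trem2 and Nfatc1 in the 8 groups, 48 h left and 72 h right of the line. Oscar and Siglec15, which was chosen for its likeness to Oscar, are both highest in EV+RANKL cells at 72 h, and Trem2 is lower in RANKL than in PBS cells at both times.

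Around the 9 genes, more of the other ITAM-coupled receptors fell than rose with RANKL. Of 29 such receptors 15 were tested, and in RANKL against PBS cells 1 was higher and 7 lower at 48 h, and 3 higher and 5 lower at 72 h. Over all tested genes 6.47% were higher and 8.29% lower at 48 h, and 9.73% higher and 9.13% lower at 72 h. The median change at 72 h was -0.32, beside 0.00 over all tested genes. Fcgr1, the high-affinity IgG receptor that uses the Fc gamma chain, fell by 2.55 log2 units at 48 h (adjusted p = 5.82e-06) and by 2.05 at 72 h (adjusted p = 3.47e-05). Fcgr3, a low-affinity IgG receptor with the same adaptor, fell by 2.91 at 48 h (adjusted p = 0.000874), and the C-type lectin Clec4e by 1.91 at 72 h (adjusted p = 0.000732). In EV against PBS cells 0 of the 15 passed in limma at 48 h, where 1.29% of all tested genes were called. At 72 h 2 were higher, Pira2 and the IgG receptor Fcgr4 (1.32, adjusted p = 0.00833), where 10.4% of all tested genes were higher and 7.83% lower. Fcgr4 was not particular to vesicles. At 72 h it averaged 13.4 RPKM in EV+RANKL, 9.05 RPKM in RANKL, 7.68 RPKM in EV and 2.40 RPKM in PBS cells. With vesicles on top of RANKL, Cd300ld, an activating CD300 receptor, was lower at 48 h (-0.89, adjusted p = 0.00691) and at 72 h (-1.12, adjusted p = 0.0015), and Clec4d was lower at 72 h (-0.86, adjusted p = 0.023).

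Among 24 tested ITIM receptors and signalling brakes, RANKL cells had 2 higher and 8 lower than PBS cells at 48 h, and 8 higher and 5 lower at 72 h, where 14.8% and 18.9% of all tested genes were called. The phosphatase gene Ptpn22 rose by 1.18 at 48 h (adjusted p = 3.18e-05) and by 1.30 at 72 h (adjusted p = 2.18e-05). The adaptor gene Dok3, a negative regulator of immune receptor signalling, rose by 1.20 in RANKL cells at 72 h (adjusted p = 0.00261) and by 1.31 in EV cells at 72 h (adjusted p = 0.0071). In EV cells at 72 h 6 brakes were higher and 1, Dok2, was lower, beside 10.4% higher and 7.83% lower over all tested genes, and the inhibitory IgG receptor Fcgr2b rose by 1.53 (adjusted p = 0.00957). Siglece, an inhibitory sialic acid receptor, fell by 0.97 in EV against PBS cells at 48 h (adjusted p = 0.00983). It was the 1 brake called in that comparison, where 1.29% of all tested genes were called.

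Of 23 tested SRC family kinases, scaffolds and exchange factors, RANKL cells had 1 higher and 6 lower than PBS cells at 48 h, and 2 higher and 4 lower at 72 h, where 14.8% and 18.9% of all tested genes were called. Src, the kinase required for bone resorption by osteoclasts, rose by 1.55 at 48 h (adjusted p = 0.00116) and by 2.36 at 72 h (adjusted p = 8.7e-05). Pik3cg, a catalytic subunit of phosphoinositide 3-kinase, fell by 0.89 at 48 h (adjusted p = 0.000104) and by 0.63 at 72 h (adjusted p = 0.00124). In EV against PBS cells 0 passed in limma at 48 h, where 1.29% of all tested genes were called. At 72 h 4 were higher, Src among them (1.02, adjusted p = 0.0188), and 2 lower, where 18.3% of all tested genes were called.

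Downstream, 22 phospholipase C, calcium and calcineurin genes were tested, and RANKL cells had 4 higher and 1 lower than PBS cells at 48 h, and 4 higher and 2 lower at 72 h, where 14.8% and 18.9% of all tested genes were called. Nfatc1 rose by 2.93 at 48 h (adjusted p = 7.16e-07) and by 3.04 at 72 h (adjusted p = 4.5e-07). Rcan1, a calcineurin regulator and NFAT target, rose by 1.80 at 48 h (adjusted p = 4.45e-05) and by 1.78 at 72 h (adjusted p = 6.19e-05). Camk1 fell by 0.76 at 48 h (limma adjusted p = 0.00024) and by 0.66 at 72 h (limma adjusted p = 8e-04). The median RANKL change of the list was -0.05 at 48 h, beside 0.06 over all tested genes, and 0.05 at 72 h, beside -0.0002. Vesicles alone also raised Nfatc1 at 48 h by 1.93 (adjusted p = 9.63e-05) and Rcan1 by 1.58 (adjusted p = 0.000644). They were the only 2 genes of this list called there, where 1.29% of all tested genes were called. With so few calls over all genes, the 0 of 9 ITAM pathway genes called there does not show that those genes were unchanged. At 72 h the EV differences from PBS were 1.07 for Nfatc1 (adjusted p = 0.00536) and 0.91 for Rcan1 (adjusted p = 0.0113). In that comparison 4 genes of the list were higher and 1, Stim2, was lower (-0.42, limma adjusted p = 0.0126). Over all tested genes 10.4% were higher and 7.83% lower there.

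Of 14 genes listed as ligands of these receptors or of related ones, 7 were tested, and in RANKL against PBS cells 1 was higher and 2 lower at 48 h, and 2 higher and 4 lower at 72 h, where 14.8% and 18.9% of all tested genes were called. Angptl2, a secreted ligand of PIR-B, was called in all 6 comparisons of RANKL or vesicles. It rose by 2.12 in EV against PBS cells at 48 h (adjusted p = 7.56e-06) and by 1.91 at 72 h (adjusted p = 1.35e-05). Vesicles on top of RANKL raised it by 1.65 at 48 h (adjusted p = 0.000157) and by 1.74 at 72 h (adjusted p = 8.05e-05), and RANKL alone by 0.54 at 48 h (adjusted p = 0.0142) and by 1.33 at 72 h (adjusted p = 5.76e-05). Rtn4, whose product Nogo is another PIR-B ligand, went the other way: it fell by 0.57 in RANKL against PBS cells at 48 h (adjusted p = 0.00885) and by 0.70 at 72 h (adjusted p = 0.00262), and by 0.88 in EV against PBS cells at 72 h (adjusted p = 0.00362). Apoe, which encodes a lipoprotein that TREM2 binds, rose by 0.57 in RANKL against PBS cells at 72 h (adjusted p = 0.00262). It also rose by 0.45 in EV against PBS cells at 72 h (limma adjusted p = 0.0163). Its level was low, averaging 1.97 RPKM in RANKL, 1.72 RPKM in EV and 0.994 RPKM in PBS cells at 72 h. Gas6, a ligand of TAM receptors and not a known ligand of the 3 receptors here, fell by 1.42 in RANKL cells at 48 h (adjusted p = 0.00804). All 5 lists were chosen with earlier results of these libraries known, so their counts are descriptions.

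**Figure D4:**
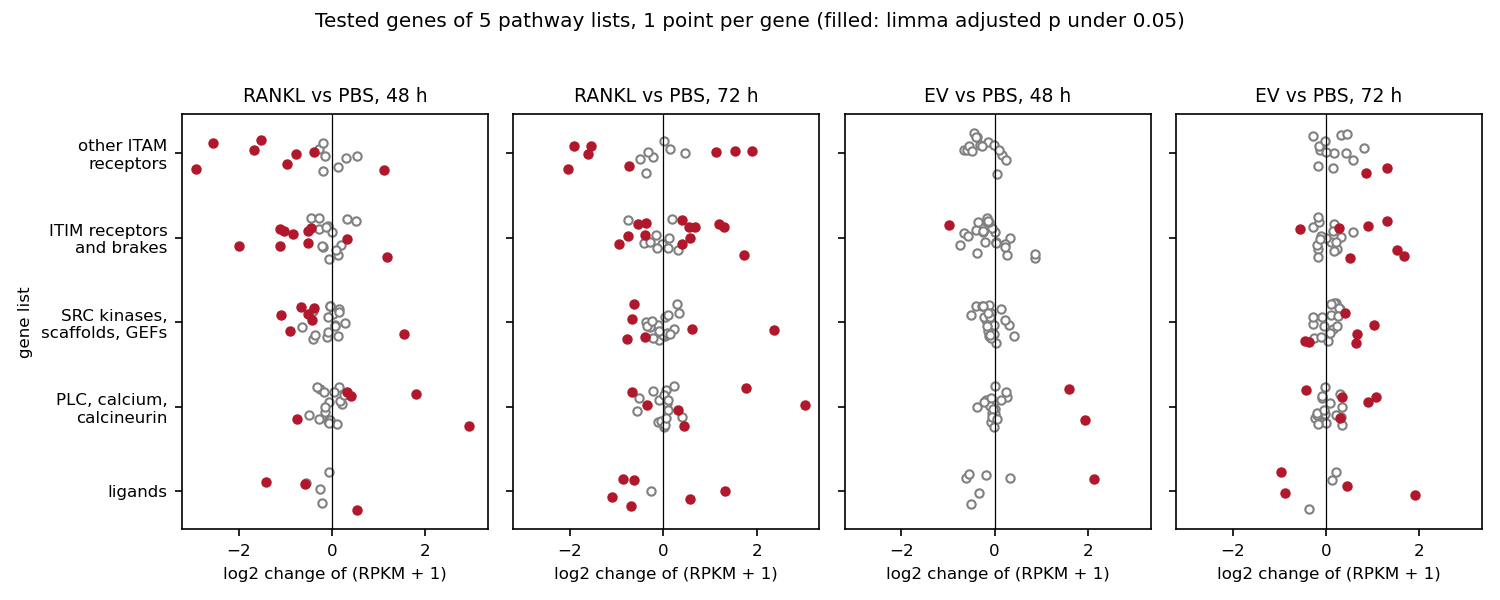
Change on the log2(RPKM + 1) scale of each tested gene of 5 pathway lists, 1 point per gene, in RANKL and in EV against PBS cells at 48 and 72 h; filled points have a limma adjusted p under 0.05. At 48 h RANKL lowers 7 of 15 other ITAM receptors and raises 1, where 8.29% of all tested genes are lower and 6.47% higher. EV calls no gene of that list at 48 h, where 1.29% of all tested genes are called.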

How the data were processed

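RNA-seq of 16 libraries was used as deposited, in 1 table of 20490 genes. The deposited values behave as log2(RPKM + 1), judged from the values, since the labels do not name the unit; RPKM here is the deposited value with the log2 and the 1 taken off. Per the labels' protocols, RNeasy columns and the TruSeq mRNA preparation were used. FastQC, HISAT2, Partek and the builds GRCh38 and hg38 are named in the submitters' processing notes, while the table holds mouse symbols; a mouse build, an annotation and a counting method are not given by them. The column of 1 EV+RANKL library of 48 h does not carry the RANKL letter in its name; it was assigned to its group only and given the number 2 that was left there.

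Genes reaching 1 RPKM in at least 2 libraries (10365) were fitted with limma 3.58.1 in R 4.3.3 (8 group means, mean-variance trend), two-sided, with Benjamini-Hochberg adjustment over all tested genes and a threshold of 0.05. A change on log2(RPKM + 1) understates the change of low genes. An exact permutation of 2 against 2 libraries cannot reach 0.05, so no such test was used. Each library's depth was chosen to put the most low values of single-exon genes within 0.02 of a whole number of reads. At the chosen depths 80.1 to 85.9% of those values did so, a share that the choice maximizes and that does not check the depths. Counts were thus not recovered in full, so no count test was run and depths are estimates. Steps were tested on simulated data. Named genes were the 9 members, the 3 most like each by Pearson r over the 8 group means, with members spanning under 1 log2 unit left out, and up to 3 called genes per list and comparison by smallest p. Siglec15 was named as the gene most like Oscar, and it was already in the list of other ITAM receptors. One gene that this rule names is not reported here. The members and lists were chosen with earlier results of these data known. Exon lengths came from GENCODE M21 and were matched for 9913 genes (95.6%). Alternatives changed the added constant, filter, scaling, replicate block, groups fitted and libraries kept.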

Additional observations from a re-analysis of the deposited data

How the results depend on the processing

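Of 2097 values of the 9 genes under alternative settings, 1952 kept their side of the threshold, 94 lost a call, 51 gained one and 0 called values changed sign. Of the 1952, 1882 kept their direction and 70, none of them past the threshold, changed sign. Leaving out 1 library at a time gave these counts of members called: 1 to 2 for RANKL against PBS at 48 h (2 with all libraries), 1 to 5 at 72 h (4), 0 to 0 for EV against PBS at 48 h (0), 0 to 6 at 72 h (4), 0 to 0 for EV+RANKL against RANKL at 48 h (0) and 0 to 3 at 72 h (0). Over all genes the same ranges were 717 to 908 (1530), 738 to 2854 (1954), 34 to 59 (134), 36 to 2918 (1895), 2 to 11 (45) and 5 to 1815 (190). With no filter on low values, members called were 1 for RANKL at 48 h, 2 at 72 h and 0 for EV at 72 h, and genes called were 69 for EV at 48 h and 1062 at 72 h. With only the compared groups fitted, members called were 5 for RANKL at 48 h, 1 at 72 h, 1 for EV at 48 h and 0 at 72 h. The genes called were then 2596 and 412 for RANKL at 48 and 72 h, 344 and 10 for EV, and 108 and 8 for EV+RANKL against RANKL. With an added constant of 0.1 the last was 124 at 72 h, and with quantile scaling it was 29 at 48 h. Without the 5 libraries of 72 h with the highest ribosomal protein share, an alternative chosen after seeing the data, RANKL at 72 h called 2 members and 1116 genes. The cause of these shifts was not tested.

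Replicate numbers were not taken to pair the libraries, since the labels tie them to no shared source. Deviations of same-numbered libraries nevertheless correlated at over 0.1 in 17 of 28 pairs of groups (-0.115 to 0.529, median 0.151). This held for all 6 pairs within 48 h and for 3 of 6 within 72 h. Whether same-numbered libraries share a batch was not tested, and the main fit does not account for one. With the replicate block, genes called were 241 for EV against PBS at 48 h and, for EV+RANKL against RANKL, 112 at 48 h and 313 at 72 h; for EV against PBS at 72 h, members called were 6, with Trem2 and Syk added, and genes called 2568 (1895 without the block). The block also added calls of Pirb in EV+RANKL against EV at 72 h, Btk in EV+RANKL against PBS at 48 h and in EV at 72 against 48 h, and Plcg2 in EV+RANKL at 72 against 48 h. With 2 libraries a group and Oscar at about 1 read or less in PBS libraries, its fold over PBS is not bounded.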
